A study of Rattus norvegicus with 10 samples.

Results

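The genes described here are the solute carriers that move bicarbonate, chloride, sodium, calcium, protons, zinc, iron, magnesium and related ions across membranes. They were taken from the deposited gene table by symbol, as every gene named Slc4a, Slc8a, Slc9a, Slc12a, Slc24a, Slc26a, Slc30a, Slc39a, Slc40a or Slc41a followed by a number. Of 75 such genes, 58 reached 0.5 FPKM or more (fragments per kilobase of transcript, scaled to the mapped fragments of the library) in 5 or more of 10 libraries, among 15169 genes of the 32623 in the table that did so. The other 17 stayed below this level and were not tested.

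Adult male Sprague-Dawley rats gave the cerebral cortex from which poly(A) RNA was sequenced, in 5 libraries labelled control and 5 labelled EA (electroacupuncture). Rats of both groups were bound for 40 min. EA rats received a current of 3 mA at 2/100 Hz for 40 min through needles at the head points GV20 (Baihui) and GV26 (Shuigou). Control rats had the same binding without stimulation. All rats were then anaesthetised with pentobarbital and perfused with saline before the cortex was taken. The replicate numbers in the labels were read as separate rats, which is not stated outright, so p-values measure the spread between these libraries.

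These carriers set the ionic conditions under which neurons fire. Cation-chloride cotransporters of the Slc12 family fix the chloride gradient that gives GABA its inhibitory effect, and bicarbonate carriers and sodium-proton exchangers hold cytoplasmic and vesicular pH. Sodium-calcium exchangers remove calcium after activity. Zinc carriers work in opposite directions, since Slc30 (ZnT) proteins take zinc out of the cytoplasm and Slc39 (ZIP) proteins bring it in, while ferroportin exports iron and the Slc41 proteins carry magnesium. The study asked which transcripts of the cortex change after EA, with the blood-brain barrier in view, and this comparison gives that answer for the ion and metal carriers.

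No carrier of these families passed the test for a difference between EA and control. In the edgeR fit 0 of 58 passed an adjusted p under 0.05 with a fold change above 1.2, against 0.0198% of all genes tested, and the lowest adjusted p was 0.245, for Slc4a3. At an unadjusted p under 0.05 there were 7 of 58 (12.1%), 2 higher and 5 lower in EA, against 13.7% of all genes (6.59% higher and 7.15% lower). DESeq2 also called 0 of 58, against 1.09% of all genes. The EA and control libraries did not separate completely for any of the 58, beside a share of 3.04% among all genes. Leaving out EA 3 separated 3 of the 58 (Slc4a10 and Slc41a2 among them; 6.02% of all genes) and leaving out EA 2 separated 2 (Slc30a9 among them; 4.77%). The 7 fell to 1 when EA 2 and EA 5, the libraries rich in structural RNA, were left out, where 8.72% of all genes had such a p, to 3 without control 5 (11.3% of all genes) and to 3 without EA 5 (10.2%).

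The intervals were narrow for most members. The 95% interval of the difference lay within 1.2-fold in either direction for 23 of 58, within 1.5-fold for 50 and within 2-fold for 57, the exception being Slc40a1. All 21 carriers with a mean of at least 10 FPKM lay within 1.5-fold, and the largest fitted log2 difference among them was 0.19 in size. Fitted differences beyond 1.2-fold were found for 3 members, Slc26a10, Slc12a7 and Slc41a3, all with lower values in EA and a mean FPKM of 1.77 or less, against 15.4% of all genes. Across the 58 the fitted log2 fold change ran from -0.43 (Slc26a10) to 0.25 (Slc4a7). Of these values 25 were above 0 and 33 (56.9%) below, against 50.5% below among all genes tested. The median was -0.032, and that of all genes tested was -0.0018.

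**Figure D1:**
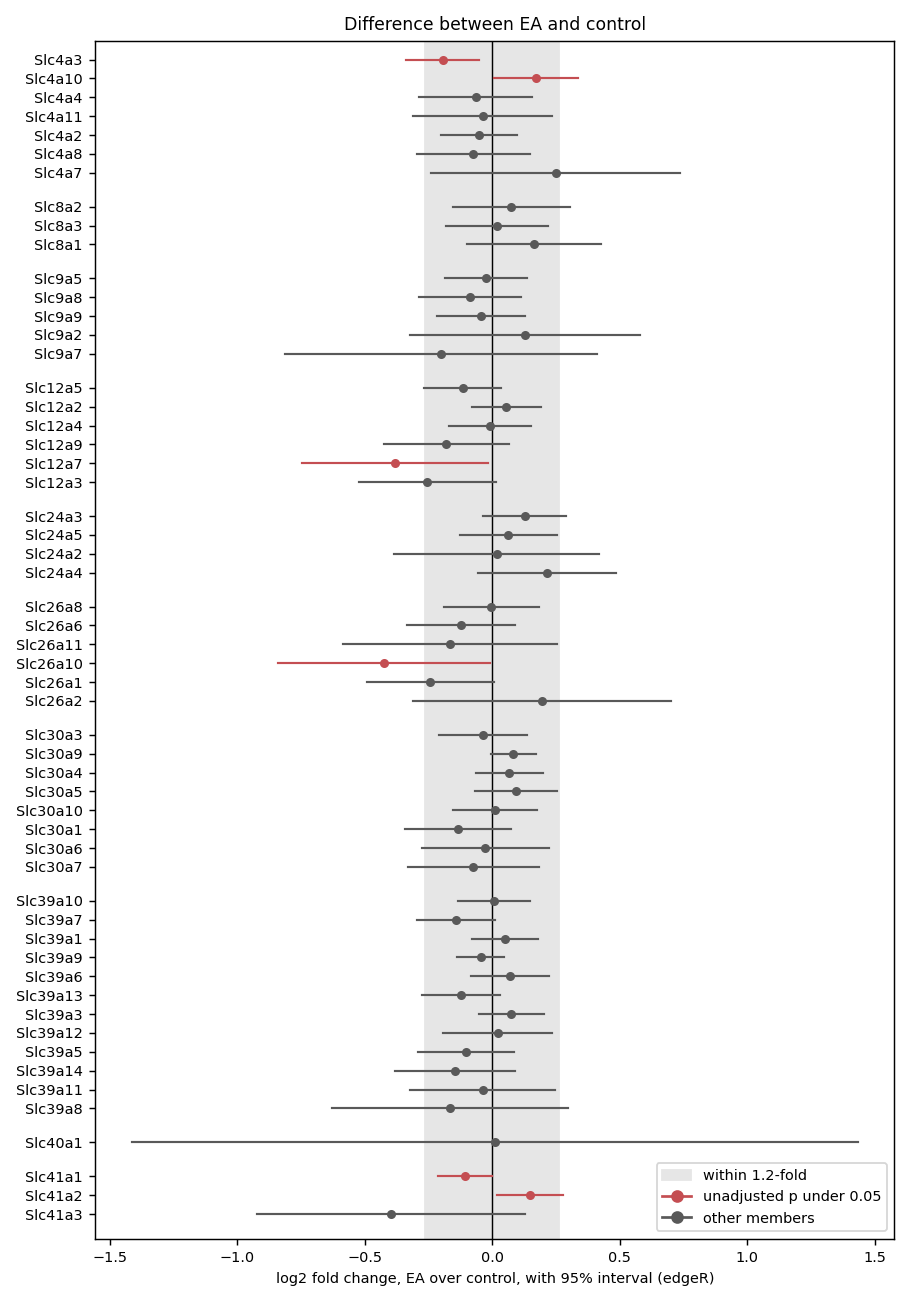
Log2 fold change of EA over control for 55 of the carriers, ordered by family and, within a family, by mean FPKM, with the 95% interval of the edgeR fit as a line and the span within 1.2-fold shaded. Red marks those with an unadjusted p under 0.05, 6 in all, and 20 intervals lie wholly inside the shading.

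Deposited counts summed to 47843590 (EA 3) to 61707722 (control 5) per library, and mitochondrial genes supplied 38.2% to 46.7% of the summed FPKM. Structural RNA stood apart in EA 2 and EA 5, with 222 and 354 summed FPKM over Rn7sl1 and Rpph1 against 6.53 to 14.9 in the other 8 libraries. The summed FPKM of oligodendrocyte markers was 1014 to 1462 in control and 899 to 1160 in EA (8 of 8 fitted lower), and that of their precursors was 67.5 to 73.9 and 56.0 to 69.3 (4 of 4 lower). Endothelial markers summed to 62.9 to 79.2 and 54.6 to 62.1 (7 genes summed, 6 of 6 tested lower). These endothelial sums did not overlap between the groups, though control 3 at 62.9 and EA 1 at 62.1 were close. Blood markers summed to 8.02 to 44.0 and 6.88 to 17.1 (4 of 4 tested lower). Ranges overlapped for oligodendrocytes, their precursors and blood. They also overlapped for neurons (3096 to 3238 and 2685 to 3614, 6 of 8 fitted higher) and astrocytes (1775 to 2082 and 1620 to 2143, 4 of 7 higher). The same held for microglia (82.7 to 96.2 and 77.8 to 92.4, 4 of 6 lower) and for pericytes and smooth muscle (136 to 159 and 134 to 152, 5 of 6 lower). Meninges overlapped as well (35.9 to 81.5 and 26.3 to 82.5, 5 of 7 lower). Choroid plexus markers were near 0 in all libraries, at 1.15 to 2.69 summed FPKM, with Otx2 at 0. The part of these marker levels in the values below was not tested. In bulk tissue, fewer cells of a type and less RNA per cell cannot be told apart.

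Levels between carriers were compared in FPKM, which is scaled by transcript length. Mean FPKM over the 10 libraries ran from 0.638 (Slc26a2) to 78.7 (Slc30a3), with a median of 7.66 for the 58 and 7.56 for all genes tested. The carriers at the top were Slc30a3, Slc12a5 (63.6 FPKM), Slc30a9 (47.9 FPKM), Slc8a2 (35.8 FPKM) and Slc39a10 (31.5 FPKM). Of the 48 pairs of neighbours in the order within a family, 31 kept the same order in all 10 libraries and 17 did not. The order was thus fixed at the top of most families, and was not at the top of Slc4 and Slc24. Replicates were close, with a median coefficient of variation of 9.26% in control and 9.42% in EA, against 9.80% and 10.9% for all genes tested.

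**Figure D2:**
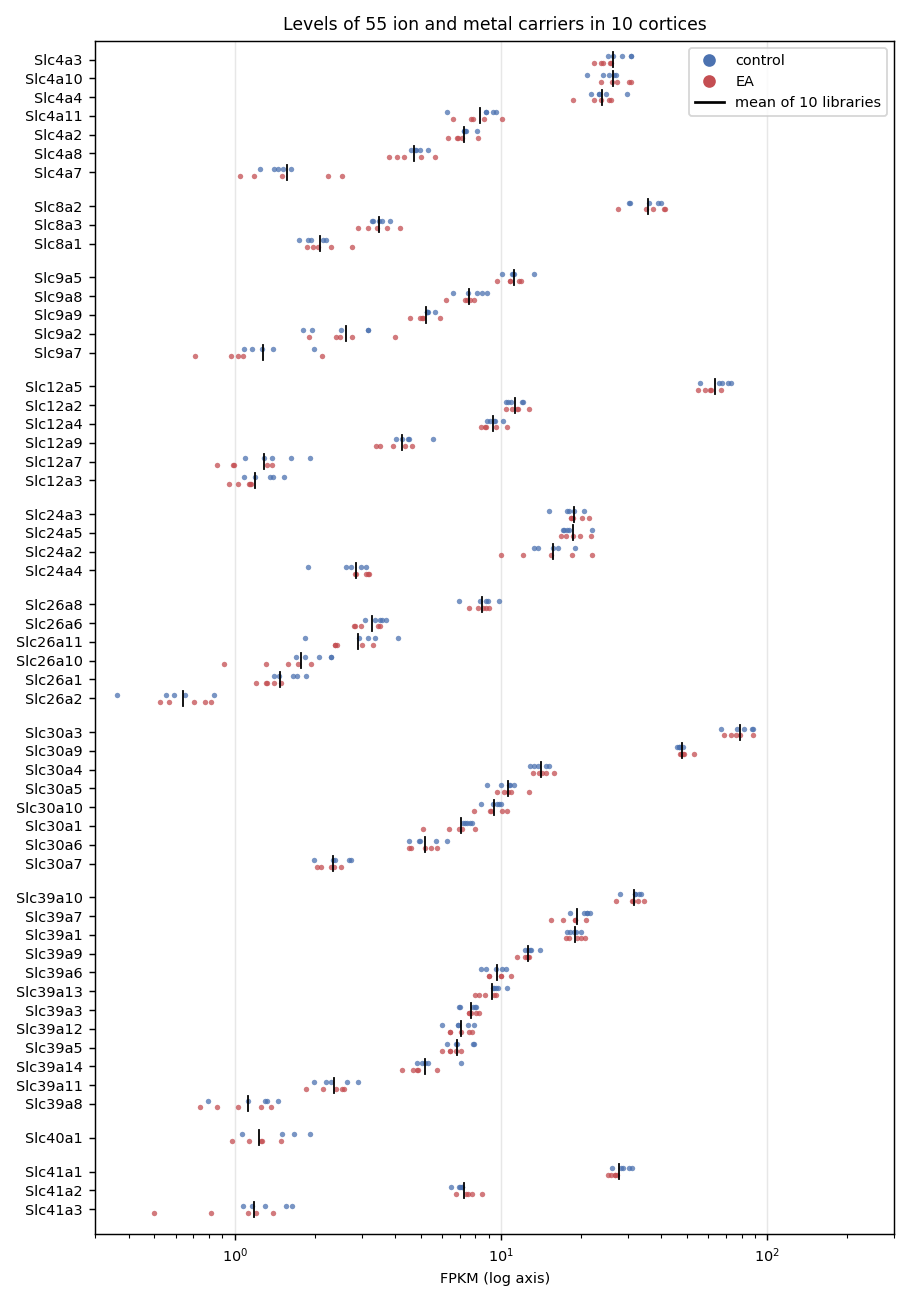
FPKM (log axis) of 55 carriers in the 5 control and 5 EA libraries, by family, with the mean of 10 libraries as a black line. Slc40a1 was listed at 0 in control 3 and that point is not drawn. The means run from 0.638 for Slc26a2 to 78.7 for Slc30a3, and blue and red points overlap in every row.

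Chloride gradients are set by the Slc12 cotransporters, 7 of whose 9 members were expressed. None passed the test, and the 7 had fitted log2 values from -0.38 to 0.056. Slc12a5 (KCC2, the neuronal potassium-chloride exporter, chromosome 3, 161425988 to 161462879, Rnor_6.0) made up 58.2% of the family's summed FPKM and came first in all 10 libraries. In CPM (counts scaled to library size by the TMM method, the scale of the test) it stood at 205, 259, 237, 250 and 244 in control and 222, 244, 221, 197 and 218 in EA. Control 1 and control 3 lay inside the EA range, and all 5 EA libraries lay below the control median. Means were 239 ± 20.7 and 220 ± 16.6 (SD, n = 5 each), and the log2 fold change was -0.12 (95% interval -0.27 to 0.034), with an edgeR adjusted p of 0.487.

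Slc12a2 (NKCC1, the sodium-potassium-chloride importer that opposes KCC2) had a log2 fold change of 0.056 (95% interval -0.081 to 0.19), with an edgeR adjusted p of 0.744. The ratio of Slc12a5 to Slc12a2 in FPKM compares exporter and importer transcripts in bulk cortex, and transport itself was not measured. This ratio was 4.62, 6.10, 6.32, 6.72 and 6.21 in control and 4.81, 6.11, 5.60, 4.77 and 5.23 in EA. Control 1 had the lowest of the 10 ratios and the other 4 control libraries had ratios close to or above the highest EA value. Its mean was 5.99 ± 0.803 in control and 5.30 ± 0.562 in EA (SD, n = 5 each), and the ranges overlapped.

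Slc12a7 (KCC4, another potassium-chloride exporter, chromosome 1, 32086755 to 32140137, Rnor_6.0) was scarce, at a mean of 1.29 FPKM. Its CPM was 8.12, 8.34, 6.74, 9.77 and 11.8 in control and 6.12, 6.17, 5.56, 8.49 and 8.06 in EA. EA 4 was above 3 of the control libraries. EA over control gave a log2 fold change of -0.38 (SE 0.17), with an unadjusted p of 0.0425 and an edgeR adjusted p of 0.342.

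Among the rest of this family, Slc12a4 (KCC1) had a mean of 9.31 FPKM and Slc12a9 4.26 FPKM. The thiazide-sensitive sodium-chloride cotransporter Slc12a3, best known from the kidney, had 1.197 FPKM. Its log2 fold change was -0.26 (edgeR adjusted p 0.386), all 5 EA libraries lying below the control median. The kidney cotransporter Slc12a1 and Slc12a8 were below the expression level required.

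**Figure D3:**
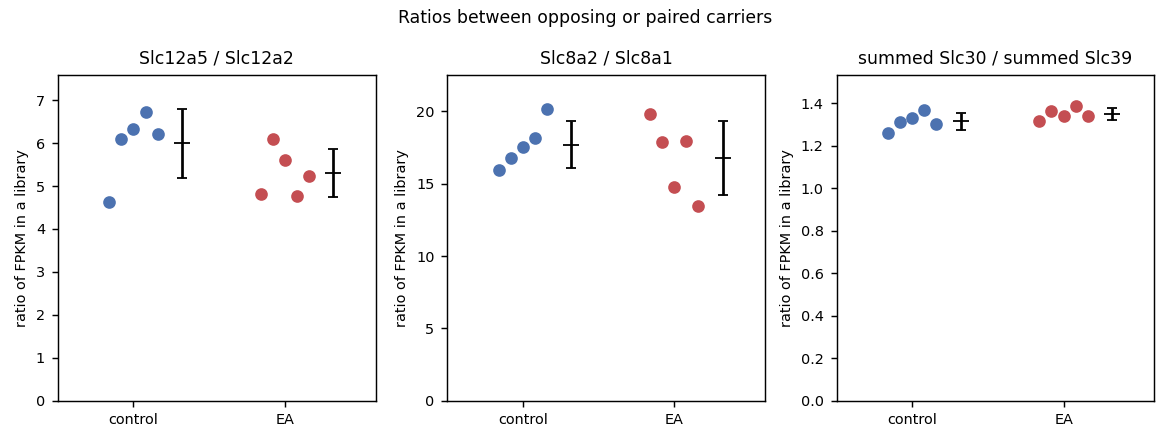
Ratios of FPKM within each library for Slc12a5 over Slc12a2, Slc8a2 over Slc8a1, and the summed Slc30 over the summed Slc39 members. Points are libraries and black bars are the mean ± SD of 5. The groups overlap in all 3 panels, for instance 4.62 to 6.72 in control and 4.77 to 6.11 in EA for Slc12a5 over Slc12a2.

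Bicarbonate is carried by the Slc4 family, of which 7 of 10 were expressed, with 3 near 24 to 26 FPKM. Slc4a3 (AE3, a chloride-bicarbonate exchanger of excitable cells) averaged 26.4 FPKM, Slc4a10 (a sodium-dependent bicarbonate carrier of neurons) 26.2 FPKM and Slc4a4 (NBCe1, the electrogenic sodium bicarbonate cotransporter known from astrocytes) 23.9 FPKM. Slc4a3 came first in 5 of 10 libraries, and it was above Slc4a10 in the same number, so the order of the pair was not fixed.

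Slc4a3 (chromosome 9, 82741920 to 82755153, Rnor_6.0) had the lowest p of the 58. Its CPM was 124, 145, 148, 134 and 127 in control and 124, 116, 130, 116 and 107 in EA. EA 3 was above control 1 and control 5, and all 5 EA libraries were below the control median. Means were 136 ± 10.5 and 119 ± 8.90 (SD, n = 5 each). On the log2 scale the fold change was -0.19 (SE 0.065, 95% interval -0.34 to -0.053), with an unadjusted p of 0.0114 and an edgeR adjusted p of 0.245.

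Slc4a10 (chromosome 3, 47995959 to 48287910, Rnor_6.0) leaned the other way. It stood at 158, 159, 127, 160 and 148 CPM in control and 185, 160, 152, 165 and 186 CPM in EA. EA 3 lay within the control range, and EA 2 was barely above its upper end. The fitted log2 fold change was 0.17 (SE 0.076), with an unadjusted p of 0.0416 and an edgeR adjusted p of 0.341. Levels of the remaining members were 8.37 FPKM for Slc4a11, 7.27 FPKM for the exchanger Slc4a2 (AE2), 4.73 FPKM for the sodium-driven exchanger Slc4a8 and 1.58 FPKM for Slc4a7 (NBCn1). Slc4a7 had the highest fitted log2 value of the 58, 0.25, with a wide interval (-0.24 to 0.74), since EA 1 and EA 5 stood at 9.77 and 10.9 CPM and the other 3 EA libraries at 4.58 to 6.87 CPM. The red cell exchanger Slc4a1 was below the level required, as were Slc4a5 and Slc4a9.

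Protons leave cells and organelles in exchange for sodium or potassium through the Slc9 family, with 7 of 9 expressed. The fitted log2 values of the 7 ran from -0.20 (Slc9a7) to 0.13 (Slc9a2), and none passed the test. The neuronal exchanger Slc9a5 had 11.2 FPKM and a log2 fold change of -0.023 (95% interval -0.18 to 0.14). Slc9a8 had 7.62 FPKM and a log2 fold change of -0.087 (95% interval -0.29 to 0.11). The endosomal exchanger Slc9a9 had 5.24 FPKM, with a log2 fold change of -0.044 (95% interval -0.22 to 0.13). Slc9a2 at 2.61 FPKM and Slc9a7 of the trans-Golgi network at 1.28 FPKM were the most scarce and had the widest spread, with coefficients of variation of 24.9% and 27.8% in control and 28.3% and 45.8% in EA. The epithelial exchangers Slc9a3 and Slc9a4 were below the level required.

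**Figure D4:**
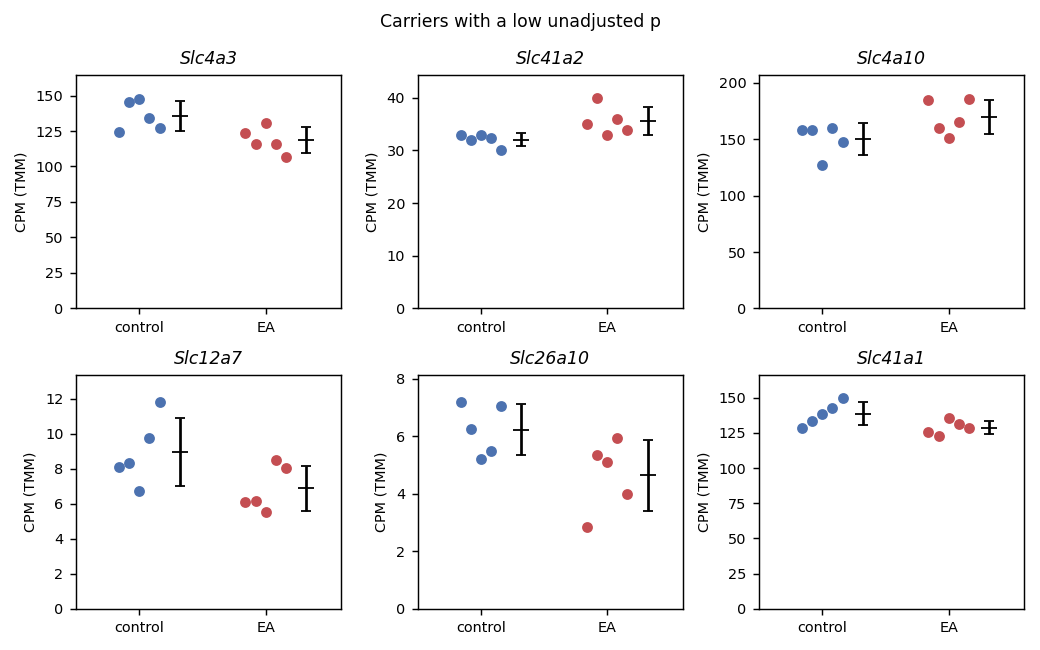
CPM after TMM scaling of 6 carriers among the 8 with the lowest unadjusted p, by library, with the mean ± SD of 5 as black bars and axes starting at 0. In each panel the control and EA points overlap, as for Slc4a3 at 124 to 148 CPM in control and 107 to 130 CPM in EA.

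Calcium is exchanged for sodium by the Slc8 family and, with potassium, by the Slc24 family. All 3 Slc8 genes and 4 of 5 Slc24 genes were expressed, and none passed the test. All 7 fitted log2 values were above 0, from 0.017 to 0.21, while 50.5% of all genes tested had values below 0. Slc8a2 (NCX2, a brain sodium-calcium exchanger, chromosome 1, 78025995 to 78060111, Rnor_6.0) supplied 86.4% of the Slc8 FPKM. It had a CPM of 114, 131, 112, 144 and 144 in control and 152, 155, 107, 130 and 136 in EA. EA 3 was the lowest and EA 2 the highest of all 10 libraries. EA over control gave a log2 fold change of 0.075 (95% interval -0.16 to 0.30), with an edgeR adjusted p of 0.807, and single left-out libraries moved the value between 0.024 (without EA 2) and 0.15 (without EA 3). Slc8a3 (NCX3) averaged 3.48 FPKM and Slc8a1 (NCX1) 2.09 FPKM, and Slc8a2 exceeded Slc8a1 by 13.5 to 20.2 times in single libraries.

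The potassium-dependent exchangers Slc24a3 and Slc24a5 shared the top of their family at 18.7 FPKM each, and Slc24a3 came first in 6 of 10 libraries. Slc24a3 (NCKX3, chromosome 3, 139695028 to 139833967, Rnor_6.0) had a CPM of 25.3, 30.4, 29.1, 32.9 and 29.7 in control and 30.3, 35.5, 32.1, 29.97 and 33.0 in EA. All 5 EA libraries were above the control median, and control 4 was above 3 of them. On the log2 scale the fold change was 0.13 (95% interval -0.036 to 0.29), with an edgeR adjusted p of 0.480, and the value was 0.080 without control 1. Slc24a5, which is known from pigment cells, shares 99 bases with Myef2 on the opposite strand, a gene at 29.7 FPKM. Slc24a2 (NCKX2, a neuronal exchanger) averaged 15.6 FPKM and was among the most variable members in EA, at 92.4 to 205 CPM against 123 to 179 CPM in control. Slc24a4 had 2.85 FPKM, and the photoreceptor exchanger Slc24a1 was below the level required.

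The Slc26 anion exchangers were scarce. Of 11 genes 6 were expressed, and their summed FPKM was 19.4 ± 1.07 in control and 17.8 ± 0.462 in EA (SD, n = 5 each). The leader was Slc26a8 (chromosome 20, 5881462 to 5931417, Rnor_6.0), an exchanger known from sperm, with 45.8% of that sum. It had 32.6, 33.6, 37.5, 25.8 and 33.6 CPM in control and 33.8, 31.7, 30.4, 32.6 and 34.1 CPM in EA, the EA libraries all lying inside the control range. The fitted log2 fold change was -0.0037 (95% interval -0.19 to 0.18), with an edgeR adjusted p of 0.991.

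Slc26a10 (chromosome 7, 70459532 to 70467915, Rnor_6.0) had the lowest fitted log2 value of the 58. It stood at 7.17, 6.25, 5.19, 5.47 and 7.04 CPM in control and 2.83, 5.34, 5.10, 5.93 and 3.99 CPM in EA. EA 2 and EA 4 were within the control range. EA over control gave a log2 fold change of -0.43 (SE 0.19), with an unadjusted p of 0.0455 and an edgeR adjusted p of 0.351, on 156 to 434 counts per library. Slc26a10 shares 349 bases with B4galnt1 on the opposite strand, which had 37.4 FPKM against its own 1.77 FPKM. Slc26a1, a sulphate carrier at 1.48 FPKM, lies wholly within Idua on the opposite strand (23.9 FPKM), and whether counting used the strand is not stated, so reads of these pairs may be shared. A shorter overlap on the opposite strand joins Slc39a5 with Ankrd52 (13 bases), and Slc30a6 shares 124 bases with AC139392 on its own strand. Slc26a6 had 3.29 FPKM, Slc26a11 2.89 FPKM and the sulphate carrier Slc26a2 0.638 FPKM. The thyroid and inner ear carrier Slc26a4 and the hair cell motor Slc26a5 were among the 5 below the level required, Slc26a5 being listed at 0 in all libraries.

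Zinc carriers made up 20 of the 58, with 8 of 10 Slc30 exporters and 12 of 14 Slc39 importers. None reached an unadjusted p under 0.05 in the edgeR fit, against 13.7% of all genes. Slc30a3 (ZnT3, which fills synaptic vesicles of glutamate neurons with zinc, chromosome 6, 26642783 to 26650105, Rnor_6.0) was the highest of all 58 and supplied 44.8% of the Slc30 FPKM. Its CPM was 139, 164, 156, 175 and 179 in control and 156, 182, 155, 160 and 138 in EA. EA 2 was the highest and EA 5 the lowest of the 10 libraries. The log2 fold change was -0.036 (95% interval -0.21 to 0.14), with an edgeR adjusted p of 0.882.

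Slc30a9, a mitochondrial zinc carrier, followed at 47.9 FPKM. Its log2 fold change was 0.083 (95% interval -0.0044 to 0.17), with an edgeR adjusted p of 0.386, and all 5 EA libraries lay above the control median. Carriers of intracellular compartments were next, with Slc30a4 at 14.2 FPKM, Slc30a5 at 10.6 FPKM, its partner Slc30a6 at 5.18 FPKM and Slc30a7 at 2.35 FPKM. The manganese exporter Slc30a10 had 9.42 FPKM. Slc30a1 (ZnT1), the plasma membrane exporter whose transcript rises with cell zinc, had 7.09 FPKM and a log2 fold change of -0.13 (95% interval -0.34 to 0.074). The pancreatic islet carrier Slc30a8 and the gland carrier Slc30a2 were below the level required.

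On the import side Slc39a10 (ZIP10, chromosome 9, 60021534 to 60070552, Rnor_6.0) led in all 10 libraries at 31.5 FPKM. It had 199, 184, 164, 182 and 198 CPM in control and 184, 206, 167, 184 and 192 CPM in EA, with means of 185 ± 14.2 and 186 ± 14.1 (SD, n = 5 each). The groups covered nearly the same range. EA over control gave a log2 fold change of 0.0066 (95% interval -0.14 to 0.15), with an edgeR adjusted p of 0.981. Slc39a6 (ZIP6), with which ZIP10 pairs, had 9.63 FPKM.

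Slc39a7 (ZIP7), which releases zinc from the endoplasmic reticulum, had 19.4 FPKM and a log2 fold change of -0.14 (95% interval -0.30 to 0.0100), with an edgeR adjusted p of 0.392. The plasma membrane importers Slc39a1 and Slc39a3 had 18.9 and 7.70 FPKM, and the Golgi carriers Slc39a9 and Slc39a13 had 12.7 and 9.25 FPKM. Slc39a12 stood at 7.06 FPKM, Slc39a5 at 6.84 FPKM and Slc39a11 at 2.35 FPKM. Slc39a14 and Slc39a8, which also carry iron and manganese, had 5.19 and 1.124 FPKM. The intestinal importer Slc39a4 and Slc39a2 were below the level required. Summed over members, Slc30 FPKM was 176 ± 8.78 in control and 175 ± 8.28 in EA, and Slc39 FPKM was 134 ± 4.34 and 129 ± 4.95 (SD, n = 5 each). The ratio of the sums lay between 1.26 and 1.37 in control libraries and between 1.32 and 1.39 in EA libraries.

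Iron leaves cells through ferroportin, Slc40a1, which had a mean of 1.23 FPKM. Its row of the table (chromosome 9, 52820683 to 52830457, Rnor_6.0) held 149, 98, 0, 126 and 178 counts in control and 125, 115, 71, 105 and 98 counts in EA. Control 3 alone was listed at 0. A neighbouring row without this symbol, described in the table as the same gene (52894365 to 52912293, the same strand), held 379, 274, 307, 278 and 382 counts in control and 267, 285, 225, 294 and 269 in EA, so control 3 had reads there. The fitted log2 fold change of the Slc40a1 row was 0.010 (95% interval -1.41 to 1.44), and it was -0.31 without control 3. With the rows joined it was -0.12 (edgeR adjusted p 0.769), and for the other row alone it was -0.17 (edgeR adjusted p 0.603). No direction was therefore fixed for ferroportin.

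**Figure D5:**
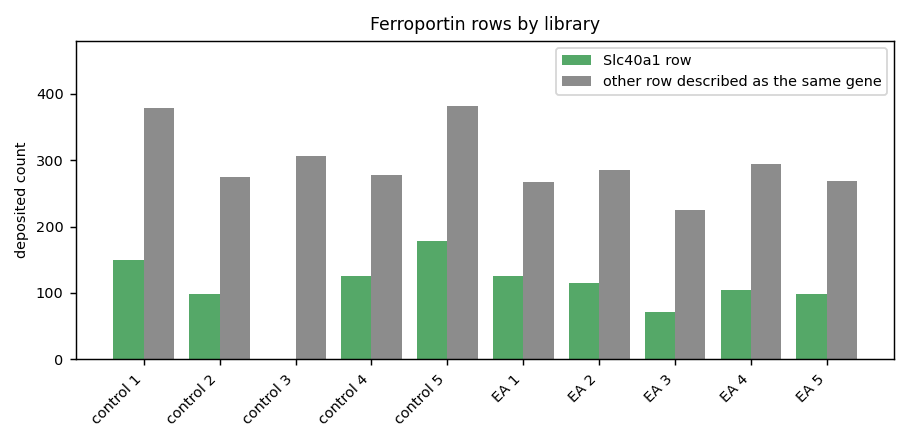
Deposited counts per library of the Slc40a1 row and of the neighbouring row described as the same gene, as bars starting at 0. Control 3 has 0 counts in the Slc40a1 row and 307 in the other, while the other 9 libraries have 71 to 178 and 225 to 382.

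Magnesium is carried by the Slc41 family, all 3 of which were expressed. In the edgeR fit 2 of them had an unadjusted p under 0.05, with opposite signs, against 13.7% of all genes. Slc41a1 (the sodium-dependent magnesium exporter of the plasma membrane, chromosome 13, 48607308 to 48627999, Rnor_6.0) supplied 76.5% of the family's FPKM. It stood at 129, 134, 138, 143 and 150 CPM in control and 125, 123, 135, 131 and 128 CPM in EA. All 5 EA libraries were below the control median, and 2 of them (EA 3 and EA 4) were within the control range. On the log2 scale the fold change was -0.11 (SE 0.049), with an unadjusted p of 0.0485 and an edgeR adjusted p of 0.360.

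Slc41a2 (a related magnesium carrier, chromosome 7, 26522314 to 26607861, Rnor_6.0) had a CPM of 33.0, 31.97, 33.0, 32.3 and 30.1 in control and 35.1, 39.9, 32.9, 35.9 and 33.9 in EA. EA 3 was within the control range and the other 4 were above it. The fitted log2 fold change was 0.15 (SE 0.059), with an unadjusted p of 0.0274 and an edgeR adjusted p of 0.302. Slc41a3, a mitochondrial magnesium carrier, averaged 1.18 FPKM with a log2 fold change of -0.40 (95% interval -0.92 to 0.13).

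Genes that work with these carriers were described from 9 lists holding 76 distinct genes tested. In the edgeR fit 0 of 76 were called, and 14 (18.4%) had an unadjusted p under 0.05, 5 higher and 9 lower in EA, against 13.7% of all genes. DESeq2 called 1 of the 76, against 1.09% of all genes, namely Slc9a3r2 with an adjusted p of 0.0128.

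Slc9a3r2 (NHERF2) is a scaffold for sodium-proton exchangers. The study names it from these same libraries, so the list is not independent evidence of its direction. The study also reports qPCR of Slc9a3r2 that matched its sequencing result, and those qPCR data were not examined here. It had 50.6, 57.6, 72.8, 59.6 and 68.5 CPM in control and 38.96, 47.8, 45.6, 54.6 and 44.8 CPM in EA. EA 4 alone was inside the control range. The edgeR log2 fold change was -0.41 (SE 0.11), with an unadjusted p of 0.00197 and an adjusted p of 0.183. In the same list of 8 exchanger partners, Chp1, a calcium-binding cofactor of the exchangers, had 135 to 140 CPM in control and 144 to 155 CPM in EA. Its groups did not overlap (1.42% of all genes did so with EA higher), the log2 fold change being 0.12 with an edgeR adjusted p of 0.230.

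The list of WNK and SPAK kinases, which control the Slc12 cotransporters by phosphorylation, had 7 genes tested. At an unadjusted p under 0.05 in edgeR 1 was higher and 2 were lower, against 6.59% and 7.15% of all genes. The kinase Stk39 (SPAK) had a log2 fold change of 0.14 (edgeR adjusted p 0.327). Kcnj10, the astrocyte potassium channel Kir4.1 kept in that list for its link to WNK signalling, had 115 to 134 CPM in control and 92.5 to 117 CPM in EA. Its log2 fold change was -0.24 with an edgeR adjusted p of 0.190, and in DESeq2 the adjusted p was 0.0391 with a fitted fold under 1.2.

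The sodium gradient that drives many of these carriers is built by the sodium pump, with 9 genes tested. Of these 1 had an unadjusted p under 0.05 in edgeR, against 13.7% of all genes. Fxyd7, a small regulator of the pump, had a log2 fold change of -0.12 (edgeR adjusted p 0.479). Of 7 calcium pumps tested 2 had higher values at that level, against 6.59% of all genes. They were Atp2b4 of the plasma membrane at 0.20 (edgeR adjusted p 0.338) and Atp2c1 of the Golgi at 0.12 (edgeR adjusted p 0.320). No carbonic anhydrase of 11 tested had an unadjusted p under 0.05, the lowest being those of Car2 at -0.12 (edgeR adjusted p 0.442) and Car10 at 0.12 (edgeR adjusted p 0.613).

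Metal handling outside the carriers gave no call either. Of 6 genes in the metallothionein and zinc sensing list, 2 were lower at an unadjusted p under 0.05 in edgeR, against 7.15% of all genes. Mt3, the brain metallothionein, had 185 to 228 CPM in control and 175 to 203 CPM in EA, a log2 fold change of -0.18 (edgeR adjusted p 0.257). Mt1m was near the floor at 0.032 to 0.83 CPM in control and 0.12 to 0.31 CPM in EA, with a log2 fold change of -1.34 (edgeR adjusted p 0.347). None of 13 iron genes had such a p in either direction, against 13.7% of all genes. The lowest were those of the transferrin receptor Tfrc at 0.12 (edgeR adjusted p 0.467) and the ferritin light chain Ftl1 at -0.17 (edgeR adjusted p 0.505). Of 10 magnesium genes, Cnnm3 was at -0.098 (edgeR adjusted p 0.340) and the channel kinase Trpm7 at 0.17 (edgeR adjusted p 0.342).

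Among 6 related carriers outside the symbol pattern, Slc20a2, a sodium-phosphate importer, had the lowest p of the 9 lists. Its CPM was 65.4, 66.5, 64.8, 65.9 and 69.3 in control and 57.5, 55.1, 60.5, 62.3 and 57.7 in EA. The groups did not overlap (1.62% of all genes did so with EA lower). EA over control gave a log2 fold change of -0.18 (SE 0.045), with an unadjusted p of 0.00176 and an edgeR adjusted p of 0.178, and in DESeq2 the adjusted p was 0.0436 with a fitted fold under 1.2. Slc8b1, the mitochondrial sodium-calcium exchanger, had a log2 fold change of -0.37 (edgeR adjusted p 0.262) on a mean of 2.53 FPKM in control and 1.93 FPKM in EA.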

How the data were processed

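Stranded paired reads came from cortical poly(A) RNA, in 5 control and 5 EA libraries. The authors used Cutadapt for trimming, HISAT2 for alignment to Rnor_6.0 and StringTie for assembly, and computed the deposited FPKM with ballgown; versions in the submitters' notes are 2.0 for HISAT2, 1.3.0 for StringTie and 0.12.2 for Bowtie. The estimated counts deposited by the authors are whole numbers from that assembly, by a route not given in the sources used here, and were treated as read counts, although they sum to more than the valid reads the study lists for each library. Deposited totals were 47843590 to 61707722 per library.

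An FPKM of 0.0001 was read as 0. Genes reaching 0.5 FPKM in 5 or more libraries were fitted with edgeR 4.0.16 in R 4.3.3 (TMM scaling, quasi-likelihood F test), with Benjamini-Hochberg adjustment over all 15169. Calls needed an adjusted p under 0.05 together with a fold change beyond 1.2, the thresholds of the study's methods. Standard errors are the log2 fold change over the root of F, and intervals are 95%. Alternatives were DESeq2 1.42.0, limma 3.58.1 on log2(FPKM + 0.1) or log2(FPKM + 1), other filters and scalings, a covariate for structural RNA, a block for the replicate number, and left-out libraries. The fit was tested on simulated data. Tables and plots used pandas 2.3.3, numpy 2.4.6, scipy 1.17.1 and matplotlib 3.10.9.

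Values in every library are given for the 8 members with the lowest unadjusted p, any whose groups do not overlap and the highest of each family, and from each list of other genes the 2 with the lowest p are named; a few genes are counted but not reported here. The members and lists were chosen with earlier results of these data known.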

Additional observations from a re-analysis of the deposited data

Results flagged for a closer look

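In 116 groups of 5 libraries (58 carriers in control and in EA), 9 held a library far from the other 4 by Dixon's test on CPM, where chance gives about 1 in 20. Control 1 was that library in 5 of the 9. It had the highest Slc4a4 of the control libraries, 145 CPM against 105 to 116, the highest Slc9a9, 20.9 CPM against 18.6 to 19.2, and the highest Slc24a5, 37.9 CPM against 28.5 to 29.9. It had the lowest Slc4a11, 20.2 CPM against 27.7 to 29.6, and the lowest Slc39a7, 49.0 CPM against 53.8 to 55.5. Control 4 had the highest Slc9a5, 55.9 CPM against 44.6 to 47.7. In EA, Slc9a8 was lowest in EA 4, at 13.8 CPM against 16.8 to 17.9, and Slc9a7 highest in EA 1, at 5.72 CPM against 1.90 to 2.86. Slc30a9 was highest in EA 5, at 127 CPM against 116 to 118.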

How the results depend on the processing

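Called carriers were 0 of 58 under all 21 alternatives, and 11 of the 15 carriers chosen by the naming rule kept their direction throughout. Carriers with an unadjusted p under 0.05 were 7 in the edgeR fit reported, 4 with limma at either pseudocount (13.9% and 14% of all genes), 1 with the structural RNA covariate (Slc12a7; 7.63%), 1 without EA 2 and EA 5 (8.72%), and 3 to 10 when single libraries were left out (10.2% to 16.9%). Carriers whose groups did not overlap were 0 with all libraries (3.04% of all genes), 2 without EA 2 and EA 5 (6.1%) and 0 to 3 without single libraries (3.61% to 7.67%), where fewer libraries have to be apart. The median log2 fold change of -0.032 became -0.053 with limma at the pseudocount of 0.1, -0.013 with the covariate, -0.0091 without EA 2 and EA 5, and ran from -0.045 to -0.0092 without single libraries. The direction of 4 carriers near 0 turned. Slc26a8 was 5.79e-05 with filterByExpr, 0.0053 with the replicate block and -0.074 to 0.055 without single libraries. Slc30a3 was -0.090 to 0.012 without single libraries. Slc39a10 was -0.016 with limma at either pseudocount, -0.061 with the covariate, -0.056 without EA 2 and EA 5, and -0.031 to 0.049 without single libraries. Slc40a1 was -0.31 to 0.23 without single libraries and -0.12 with its rows joined, an alternative chosen after seeing the data, and against 0.010 as reported it reached 0.51 with limma at the pseudocount of 0.1 and 0.40 with the replicate block. The causes of these changes were not tested, and the left-out fits also had fewer samples.

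Over all genes edgeR called 3, DESeq2 166 and the replicate block 0. For pairing, the mean log2 CPM of each gene in its group was first subtracted, and the remaining deviations were correlated between control and EA libraries. Deviations of same-numbered libraries correlated at 6e-04 to 0.078. Of the 5 pairs, 2 correlated best with their own number, so the numbers did not consistently pair the samples. With the block 7 carriers had an unadjusted p under 0.05, Slc26a10 (p 0.0782 from edgeR) being replaced by Slc39a14, and 0 were called.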
